A study of Mus musculus with 13 samples.

Results

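Genes of myelin and of mature oligodendrocytes were followed in cells sorted from mouse brain as oligodendrocyte precursor cells (OPCs) at 4 ages. The group consists of 30 named genes of the 37785 genes counted: 5 encode proteins of compact myelin or of the myelin membrane, 8 serve adhesion or contact with the axon, 2 are connexins, 4 act in myelin lipid or acetate metabolism, 2 are transcription factors and 9 are secreted, metabolic or other genes. The genes were chosen by what is known of them in oligodendrocytes, with earlier results of these data also known. All 30 passed the filter on low counts, but Opalin, Gjb1 and Klk6 no longer passed it once the 2 samples highest in these genes, described below, were left out.

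The cells came from brains of wild-type C57BL/6 mice and were pulled out with magnetic microbeads against PDGFRα, the surface receptor that marks OPCs, after which total RNA was sequenced in bulk. The design held 4 ages: 3 libraries at embryonic day 16 (E16), 3 at postnatal day 12 (P12), 3 at P80 and 4 at P310. All groups shared genotype, strain, tissue and bead target, and no group carried a transgene or an agent. At P80 and P310 the cell suspension was first passed over myelin removal beads, which the labels do not mention at E16 or P12, so age and bead use cannot be told apart in any comparison of an adult with an earlier age. The age field of the labels gives day 81 for 2 of the P80 libraries and a few days under 310 for those titled P310. The labels do not say whether replicates came from separate animals, so p-values measure the spread between these samples, which may be technical.

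Oligodendrocytes arise from OPCs, leave the cell cycle and wrap axons with many layers of membrane. In compact myelin the cytoplasmic faces of these layers are held together by basic proteins, while adhesion proteins line the innermost layer facing the axon and the outer surface of the sheath, and the membrane is rich in galactolipids. In the mouse forebrain myelination is largely postnatal and Pdgfra is lost when OPCs differentiate.

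The bases before the transcription start of 4 members are shown because these genes stand for the different patterns described below: Mobp, which had the highest ratio between P310 replicate 2 and the other P310 samples; Mag and Mog, which were higher in P12 replicate 1 than in any other sample; and Mal, which was high in all postnatal samples. Each line gives bases 250 to 51 before a RefSeq start, read 5′ to 3′ on the gene's strand, in the GRCm38.p6 build, outside the first exon annotated from that start. Capitals mark letters that match, on either strand, the MYRF motif (CTGGCAC or CTGGTAC) or the Sox motif (ACAAAG or ACAATG, which on the opposite strand read CTTTGT or CATTGT).
Mobp (chr9:120149492-120149691, plus strand): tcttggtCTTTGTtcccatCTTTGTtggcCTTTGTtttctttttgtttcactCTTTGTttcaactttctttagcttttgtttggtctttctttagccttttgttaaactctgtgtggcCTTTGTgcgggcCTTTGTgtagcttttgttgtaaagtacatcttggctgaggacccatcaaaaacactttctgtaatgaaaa
Mag (chr7:30914914-30915113, minus strand): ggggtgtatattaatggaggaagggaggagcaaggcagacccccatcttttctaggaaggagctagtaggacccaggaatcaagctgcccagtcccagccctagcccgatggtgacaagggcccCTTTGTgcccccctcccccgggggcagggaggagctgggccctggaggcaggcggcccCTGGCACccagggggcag
Mog (chr17:37023449-37023648, minus strand): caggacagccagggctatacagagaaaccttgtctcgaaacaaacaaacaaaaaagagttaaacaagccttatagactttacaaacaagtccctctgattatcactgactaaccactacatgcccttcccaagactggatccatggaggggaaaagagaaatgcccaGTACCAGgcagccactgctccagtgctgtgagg
Mal (chr2:127656746-127656945, minus strand): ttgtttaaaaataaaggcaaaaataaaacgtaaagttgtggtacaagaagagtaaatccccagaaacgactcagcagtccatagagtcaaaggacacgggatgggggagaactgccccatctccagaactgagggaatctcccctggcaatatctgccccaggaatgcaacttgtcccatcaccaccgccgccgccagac
The Mobp stretch held 6 matches to the Sox motif, that of Mag held 1 match to each motif, that of Mog 1 match to the MYRF motif and that of Mal none. Mag has 3 annotated starts, and of their stretches only the one shown held both motifs. MYRF and SOX10 are the transcription factors best known for driving myelin genes, and the motifs are short versions of the letters they are known to bind. RefSeq held windows of 300 bases (250 before to 50 after the start) for 24 of the 30 members, all but Mbp, Myrf, Trf, Car2, Cryab and Fa2h, and 36 windows in all because some genes have several starts. The MYRF motif was present in 7 of the 36 windows (19.4%), in 6 genes: Cnp, Gamt, Hapln2, Mag, Mog and Opalin. It was present in 7.1% of all 32851 windows of the same length. The Sox motif was present in 14 of the 36 windows (38.9%), in 11 genes, and in 28.6% of all windows. These are matches of letters and do not show binding.

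Libraries held 8669521 to 25810455 gene counts, and levels are given as CPM, which sets counts of libraries of unequal depth on 1 scale. A gene without any count may still be present at the level of 3 counts, which was 0.116 CPM where depth was greatest and 0.346 CPM where it was least. Such limits and the intervals below cover counting error only. P12 replicates 2 and 3 were close to the limit of counting noise (chi-square per degree of freedom 2.34, against 16.6 to 179 for the other 14 pairs of libraries of equal age) and were counted as 1 sample, called P12 replicate 2-3. This left 12 samples, with n = 3, 2, 3 and 4 at E16, P12, P80 and P310. Mitochondrial transcripts took 1.52% to 34.4% of counts, and least at E16. Pdgfra, the bead target, was at 13.7 to 93.6 CPM, Olig2 at 0.132 to 15.8 CPM and Sox10 at 1.02 to 58.1 CPM, and all 3 lay above the level of 3 counts in every sample but for Olig2 in P310 replicate 1, its lowest. Markers of other cells were present as well. The summed CPM of 12 endothelial markers was 47.5 to 74.3 at E16 and 4319 to 8057 later, that of 10 mural markers 183 to 269 and 865 to 1652, and that of 12 neuronal markers 2288 to 2537 and 129 to 652. The part of these cells in the changes from E16 described below was not tested.

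A pair of samples stood apart in the 30 genes. Their summed level, in CPM scaled by TMM (a correction for differences in composition between libraries), was 456, 439 and 377 at E16, 7266 and 874 in P12 replicates 1 and 2-3, 1130, 957 and 843 at P80, and 1653, 67158, 924 and 768 at P310. P310 replicate 2 thus lay far above all other samples, P12 replicate 1 came second, and the remaining 7 postnatal samples lay between 768 and 1653, all above E16. As a share of raw counts the 30 genes made up 4.24% of P310 replicate 2, 0.799% of P12 replicate 1 and 0.0437% to 0.144% of every other sample. The age means were 424 ± 41.8 (SD, n = 3), 4070 ± 4520 (n = 2), 977 ± 145 (n = 3) and 17626 ± 33024 (n = 4), and the SD exceeded the mean at P12 and P310. In bulk samples, fewer cells of a type and less RNA per cell cannot be told apart.

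**Figure D1:**
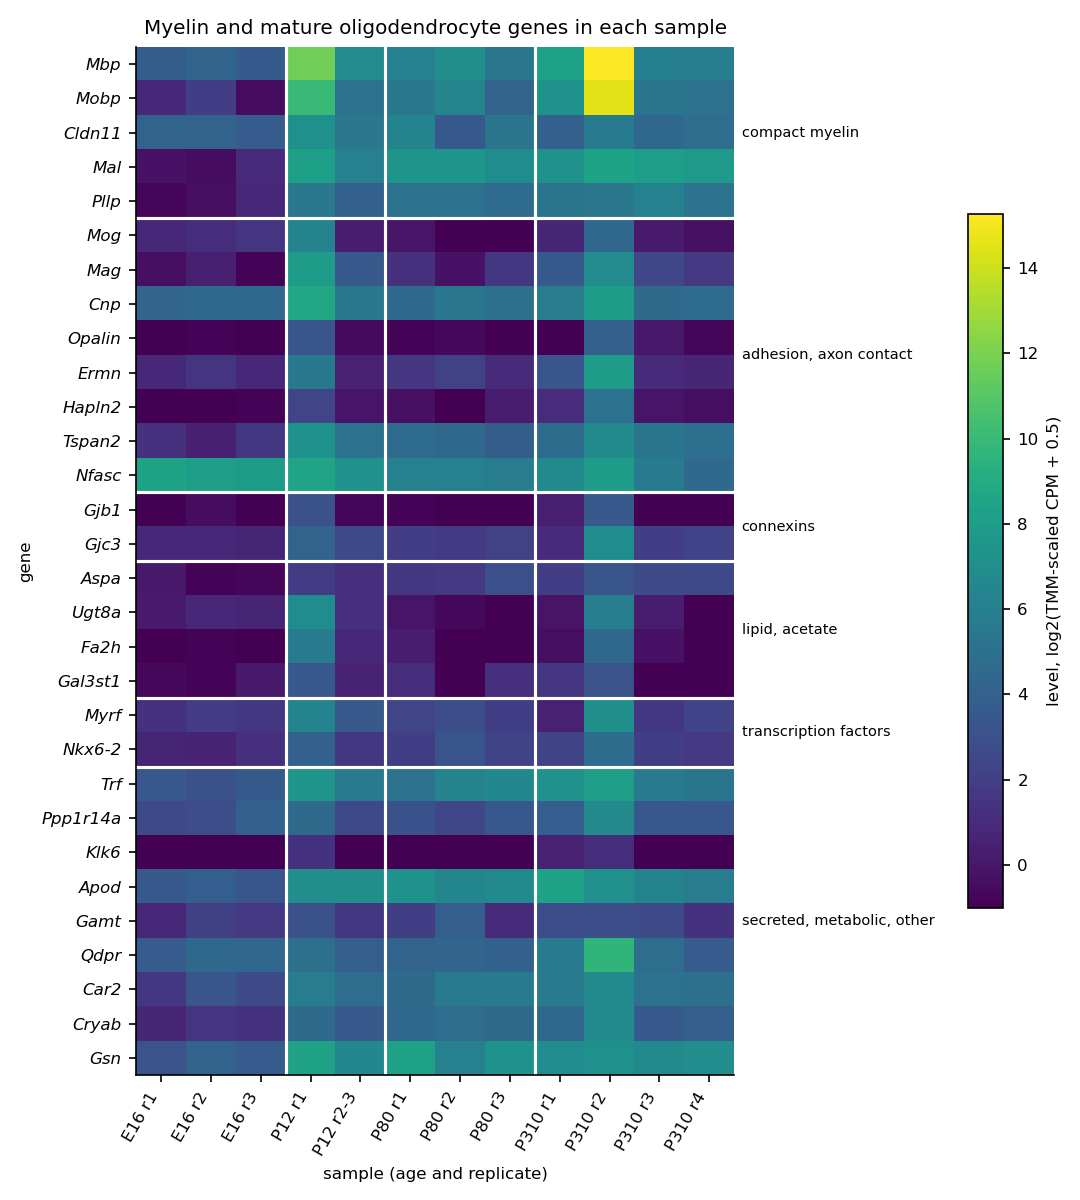
Level of each of the 30 genes (rows, grouped by role) in each of the 12 samples (columns, by age), as log2(TMM-scaled CPM + 0.5) on the colour scale. Mbp and Mobp are brightest in P310 replicate 2, at 39223 and 24409 CPM, and Mal, Pllp, Apod and Gsn change from dark to bright between E16 and every postnatal sample.

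Between E16 and P12, 15 of the 30 genes rose and none fell (edgeR quasi-likelihood test, Benjamini-Hochberg adjusted p under 0.05 over 21170 genes). Over all genes tested, 16.7% were called higher and 10.5% lower in this comparison. The risers were Mal, Pllp, Cldn11, Mag, Cnp, Opalin, Tspan2, Aspa, Fa2h, Nkx6-2, Trf, Apod, Car2, Cryab and Gsn, and the median log2 change of the 30 was 4.05, against 0.09 over all genes. At an unadjusted p under 0.05 there were 22 of the 30, against 8062 of all 21170 genes in either direction. In 22 members both P12 samples lay above all E16 samples and in 0 below, where 30.9% of all genes lay above and 30.9% below. The count rested on single libraries: it was 8 without E16 replicate 1, 8 without E16 replicate 3 and 10 without E16 replicate 2. In these fits 20.9%, 20.9% and 22.7% of all genes were called in either direction. Without P12 replicate 1, which leaves 1 sample at P12, the median log2 change was 2.22. Mal, Pllp, Tspan2, Apod, Car2 and Gsn were called under each of 21 alternative settings. Without P310 replicate 2, which enters through the shared estimate of spread, 22 of 28 genes tested rose (31.2% of all genes were then called in either direction), and without both high samples 11 of 27 (22.8% of all genes). Opalin had 149 and 136 counts in the 2 high samples and at most 6 in any other library, so it passed the filter only through samples where it was high. With a tighter filter, 1 CPM in 3 samples, which Opalin, Gjb1 and Klk6 did not pass, 14 of 27 rose, where 30.3% of all genes were called. DESeq2 gave an adjusted p to 17 members and called 12 of them higher, where 33.3% of all genes were called in either direction. The risers Mag, Fa2h and Opalin were among the members without an adjusted p.

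Between E16 and P80, 9 genes rose (Mal, Pllp, Tspan2, Aspa, Trf, Apod, Car2, Cryab and Gsn) and Nfasc fell. Over all genes 21.5% were called higher and 19.2% lower, and the median log2 change was 2.09 for the 30 genes and 0.12 for all. Both comparisons use the same E16 samples and are not independent. In 15 of the 30 genes every P80 sample lay above every E16 sample and in 3 genes below, where 28.2% and 30% of all genes did so. The calls of 8 of the risers held under each of the 21 alternatives, and that of Trf was lost without E16 replicate 2.

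No member passed the test between P12 and P80, or between P80 and P310. This depended on the low-count filter: with no filter beyond 1 count, edgeR called 14 members lower at P80 than at P12 and 16 higher at P310 than at P80, where 2.93% and 1.41% of all genes were called in either direction. With the filter, 9 and 11 of the 30 had an unadjusted p under 0.05, against 2065 and 1162 of all 21170 genes. DESeq2 called 1 of 16 members with an adjusted p (Tspan2, P80 against P12) and 0 of 17, where 3.01% and 0.132% of all genes were called. Limma-voom called 0 and 0, where 2.12% and 0% of all genes were called. Over all genes, 1.42% were called between P12 and P80 (0.406% higher and 1.02% lower at P80) and 0% between P80 and P310. The median log2 change of the members was -2.09 for P80 against P12 and 0.01 without P12 replicate 1. It was 1.81 for P310 against P80 and 0.33 without P310 replicate 2. Without P310 replicate 2, 3 members (Ugt8a, Mag and Myrf) were called lower at P80 than at P12, where 2.12% of all genes were called in either direction. In 11 members both P12 samples lay above all 3 P80 samples, where 15.5% of all genes did so. In 3 members, Mag, Tspan2 and Pllp, all 4 P310 samples lay above all P80 samples, where 2.27% of all genes did so. A test of any difference among the 4 ages called 12 of the 30 members, where 37.1% of all genes were called.

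**Figure D2:**
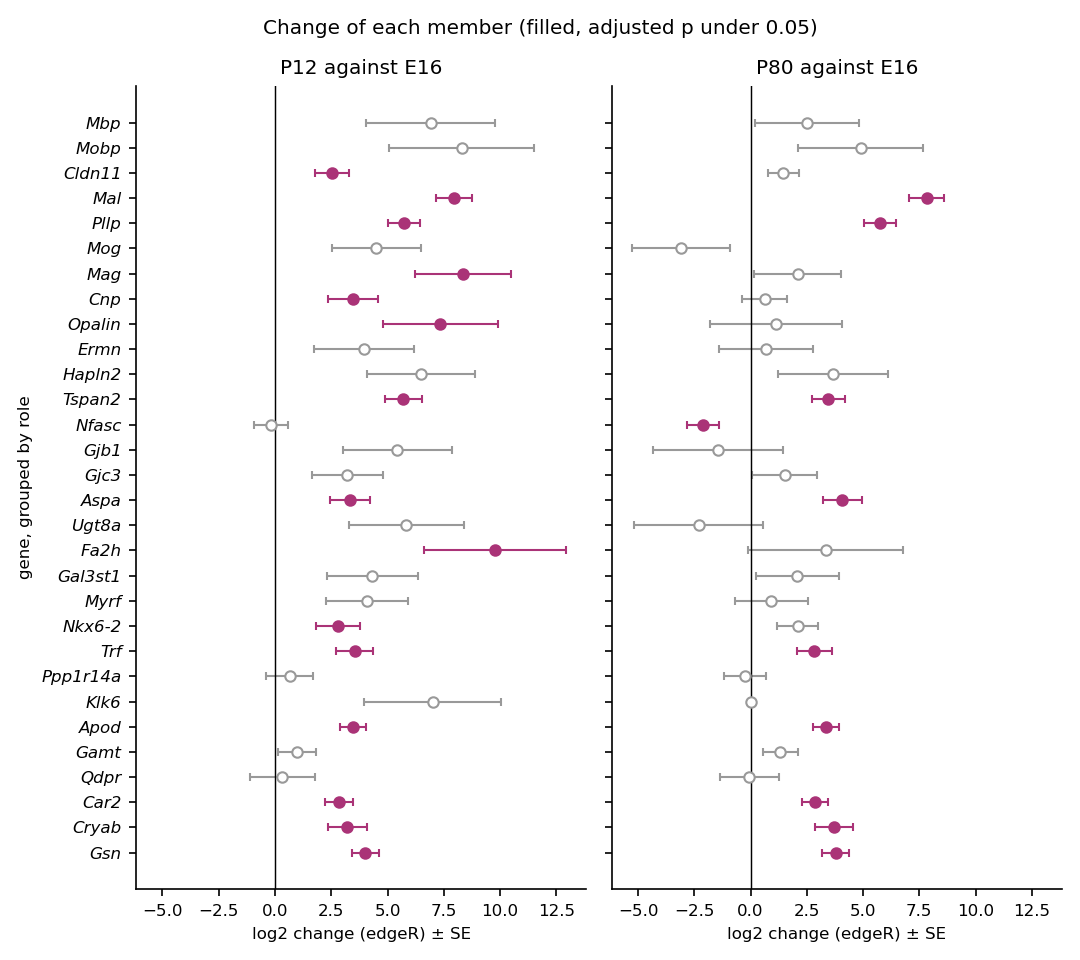
Fitted log2 change of each member at P12 (left) and P80 (right) against E16, with its standard error as bars; filled points have an edgeR adjusted p under 0.05. Mal and Pllp lie far to the right in both panels with short bars, while Mbp and Mobp have long bars and open points.

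Of the 5 genes of compact myelin and its membrane, Mal, Pllp and Cldn11 rose at P12 and Mal and Pllp at P80, both against E16, while Mbp and Mobp did not pass the test. Mbp encodes myelin basic protein, which seals the cytoplasmic faces of the membrane layers. It was at 13.4, 18.7 and 11.6 CPM at E16, 3398 and 115 at P12, 74.2, 130 and 41.9 at P80, and 319, 39223, 65.4 and 61.4 at P310. All 9 postnatal samples lay above the 3 of E16, and the 2 highest lay far above the other 7. The log2 change at P12 was 6.91 (SE 2.87) and did not pass the test (edgeR adjusted p = 0.112), which it did without P310 replicate 2. Without P12 replicate 1 it was 2.98. At P310 against P80 it was 6.92 (SE 2.78, adjusted p = 0.871), and 0.85 without P310 replicate 2.

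Mobp, a small basic protein of the same compartment, was at 1.22, 3.44 and 0.236 CPM at E16, 995 and 33 at P12, 46.4, 83.7 and 17.9 at P80, and 155, 24409, 39.5 and 34.3 at P310. Its order of samples was that of Mbp at P12, P80 and P310, and again no postnatal sample overlapped E16. The log2 changes were 8.29 (SE 3.23, edgeR adjusted p = 0.0934) at P12 and 4.90 (SE 2.77, adjusted p = 0.192) at P80, both against E16, and the test was not passed in either. Without P310 replicate 2, or with no low-count filter, both changes passed. The first was 4.33 without P12 replicate 1 and 4.36 without both high samples.

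Mal encodes a proteolipid of myelin membranes that is known for sorting membrane cargo. Its level was 0.36, 0.241 and 1.47 CPM at E16, 285 and 67.4 at P12, 174, 188 and 122 at P80, and 165, 345, 262 and 215 at P310. The 2 high samples were the highest for Mal too, at 345 and 285 CPM, but unlike for Mbp the next sample was close, at 262. The lowest postnatal sample was P12 replicate 2-3 at 67.4 CPM, with P12 replicate 1 4.23-fold above it. Mal rose by 7.95 on the log2 scale at P12 (SE 0.79, edgeR adjusted p = 2.07e-05) and by 7.82 at P80 (SE 0.78, adjusted p = 1.24e-05). Pllp, or plasmolipin, a relative of Mal, was at 0.072, 0.302 and 1.3 CPM at E16, 45.8 and 16.2 at P12, 34.1, 34.7 and 25.5 at P80, and 37.1, 43.2, 69.2 and 35.5 at P310. It rose by 5.73 (SE 0.71, adjusted p = 4.42e-05) and 5.76 (SE 0.70, adjusted p = 2.09e-05) at the same ages. Of its exon bases 54.2% are shared with the overlapping gene Gm45767 and were counted without regard to strand, so reads of the 2 genes cannot be separated.

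Cldn11 forms the tight junctions of myelin and is also made by other brain cells. It was at 17.2, 17.6 and 12.6 CPM at E16, 143 and 42.6 at P12, 81.9, 10.7 and 36.9 at P80, and 15, 52.6, 21 and 27.5 at P310. P80 and P310 overlapped E16. It rose at P12 (log2 change 2.55, SE 0.76, edgeR adjusted p = 0.0276), and the call was lost without P12 replicate 1 or without any single E16 library, over a range of 1.43 to 3.18.

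**Figure D3:**
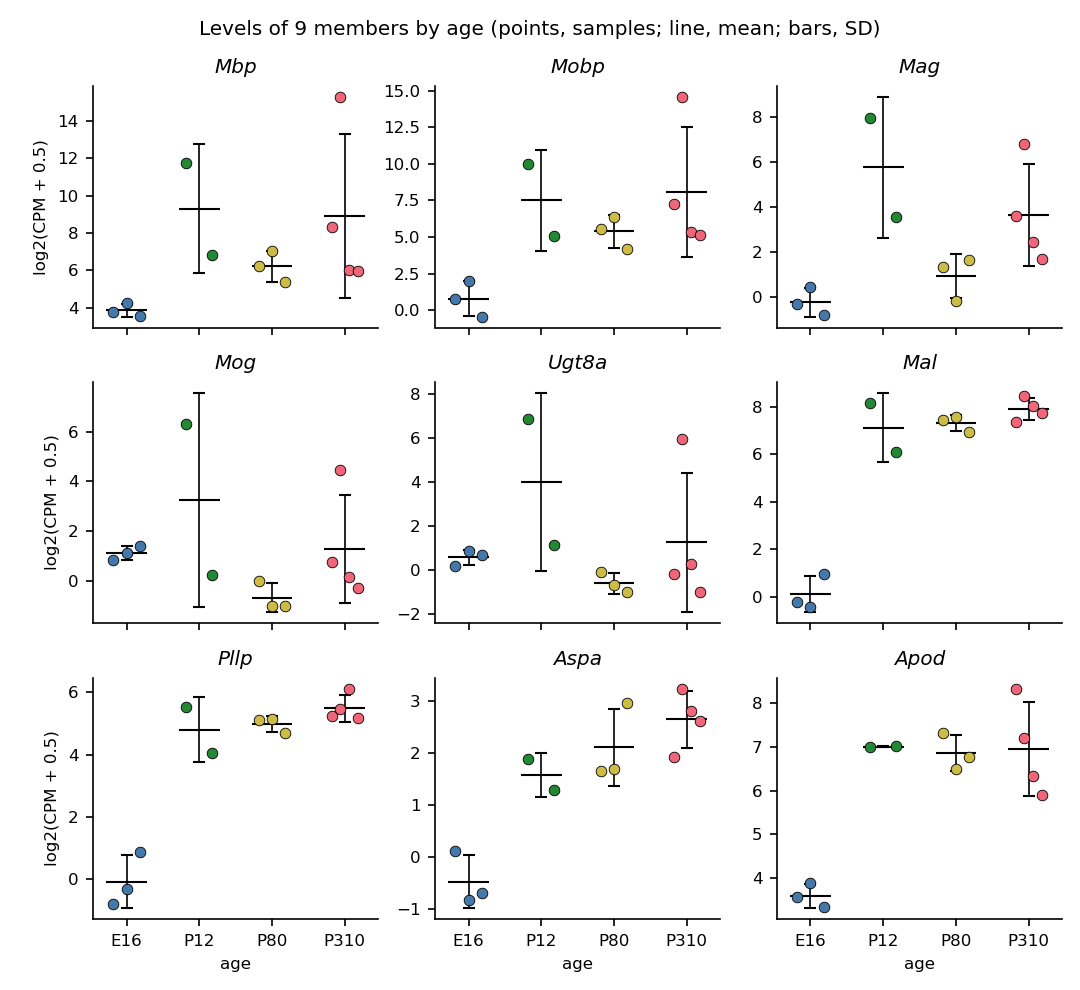
Levels of 9 members by age as log2(CPM + 0.5), with a point for each sample, a line at the mean and bars for the SD. In Mbp, Mobp, Mag, Mog and Ugt8a 1 sample at P12 and 1 at P310 stand above the rest, while all postnatal samples of Mal, Pllp, Aspa and Apod lie above the E16 samples.

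Among the 8 genes of adhesion and axon contact, Mag, Cnp, Opalin and Tspan2 rose at P12 against E16. Mag, the adhesion protein of the innermost myelin layer that binds the axon, was at 0.288, 0.845 and 0.059 CPM at E16, 254 and 11.2 at P12, 1.96, 0.371 and 2.64 at P80, and 11.7, 112, 4.99 and 2.72 at P310. P80 overlapped E16, and P12 and P310 did not. The log2 change at P12 was 8.35 (SE 2.15, edgeR adjusted p = 0.0188), and the call was lost without P12 replicate 1, E16 replicate 1 or E16 replicate 3, over a range of 4.79 to 9.58. Against P12, the P80 samples were lower by a log2 change of -6.25 (SE 1.92, adjusted p = 0.251), and the P310 samples were higher than P80 by 4.23 (SE 1.69, adjusted p = 0.871). These were -2.71 without P12 replicate 1 and 1.87 without P310 replicate 2. The call at P12 against E16 was kept without P310 replicate 2, and that change was 4.82 without both high samples.

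Mog, a glycoprotein of the outermost sheath surface and a late marker of the lineage, was at 1.3, 1.69 and 2.18 CPM at E16, 78.4 and 0.679 at P12, 0.507, 0 and 0 at P80, and 1.19, 21.8, 0.624 and 0.34 at P310. Apart from P12 replicate 1 and P310 replicate 2, all postnatal samples lay below all E16 samples. The log2 change at P12 was 4.51 (SE 1.97, edgeR adjusted p = 0.123) and -1.33 without P12 replicate 1. At P80 against E16 it was -3.09 (SE 2.17, adjusted p = 0.284), which did not pass the test.

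Cnp encodes the enzyme CNPase, which keeps cytoplasmic channels through myelin open. It was at 19.5, 20.8 and 22.1 CPM at E16, 412 and 45 at P12, 23.3, 41 and 31.5 at P80, and 57.3, 256, 24.3 and 25.5 at P310. No postnatal sample overlapped E16, although the lowest of them, 23.3, was close to the highest E16 value. It rose at P12 (log2 change 3.46, SE 1.11, edgeR adjusted p = 0.0445), and the call was lost without P12 replicate 1 or without any single E16 or P80 library, over a range of 1.12 to 4.31. It was also lost when P12 replicates 2 and 3 were kept apart (3.01, adjusted p = 0.052).

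Tspan2, a tetraspanin of the oligodendrocyte surface, was at 2.02, 0.845 and 2.54 CPM at E16, 156 and 33.1 at P12, 24.9, 21.4 and 13.1 at P80, and 26.7, 105, 39.3 and 30.6 at P310. It was highest at P12 replicate 1, and P80 lay below both P12 and P310 with no overlap. It rose by 5.71 (SE 0.81, edgeR adjusted p = 2.51e-04) at P12 and by 3.46 (SE 0.72, adjusted p = 0.00252) at P80, both against E16. P80 against P12 gave -2.25 (SE 0.70, adjusted p = 0.222), and P310 against P80 gave 1.35 (SE 0.62, adjusted p = 0.871). Without the high sample of P12 or P310 these were -0.75 and 0.70.

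Nfasc encodes neurofascin, whose glial form anchors the myelin loops beside the node and whose neuronal form sits at the node and the axon's start. It was the member with the highest level per kilobase of exon at E16, at 341, 282 and 233 CPM, followed by 360 and 148 at P12, 70.8, 68.2 and 59.5 at P80, and 103, 248, 53.2 and 23.5 at P310. All P80 samples lay below all E16 samples. Nfasc fell at P80 by 2.11 on the log2 scale (SE 0.70, edgeR adjusted p = 0.035), and the call was lost without any single E16 or P80 library, over changes of -2.24 to -1.96. At P12 the log2 change was -0.17 (SE 0.76, adjusted p = 0.898). The summed neuronal markers were also lower at the later ages, as given above, and their part in Nfasc was not tested. Counts per gene do not separate the forms of neurofascin.

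The other 3 genes of this role were low outside the 2 high samples. Opalin, a membrane glycoprotein of oligodendrocytes, was at 0 to 0.535 CPM in all samples but P12 replicate 1, at 9.27, and P310 replicate 2, at 15. A single count was found at E16, so the size of its change is poorly set. It passed the test at P12 (log2 change 7.35, SE 2.55, edgeR adjusted p = 0.0497), and the call was lost without P12 replicate 1, P310 replicate 3 or any single E16 or P80 library, over a range of 2.79 to 9.20. With limma-voom it was 3.48 (adjusted p = 0.083) and not called. Ermn, a protein that binds actin in the cytoskeleton of myelinating cells, was at 48 CPM in P12 replicate 1 and 243 in P310 replicate 2, against 0.891 to 9.24 in the other postnatal samples and 1.22 to 2.17 at E16. Its log2 change at P12 was 3.95 (SE 2.23, adjusted p = 0.233) and -0.81 without P12 replicate 1. Hapln2, a link protein of the matrix at nodes, reached 4.79 and 33.7 CPM in the 2 high samples and at most 1.58 elsewhere.

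The 2 connexins link oligodendrocytes with each other and with astrocytes or join layers of the sheath. Gjb1 (connexin 32) was at 7.78 CPM in P12 replicate 1 and 10.9 in P310 replicate 2, and at 0 to 0.792 in every other sample. Its log2 change at P12 was 5.44 (SE 2.41, edgeR adjusted p = 0.118), and 0.34 without P12 replicate 1. Gjc3 was at 1.22, 1.33 and 1.12 CPM at E16, 17.3 and 5.83 at P12, 3.36, 2.96 and 4.17 at P80, and 1.45, 117, 3.3 and 4.42 at P310. Every postnatal sample of Gjc3 lay above E16, and it was not called in any of the 4 comparisons.

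Of the 4 genes of lipid and acetate metabolism, Aspa and Fa2h rose at P12 and Aspa also at P80, both against E16. Ugt8a makes galactosylceramide, the main galactolipid of myelin. It was at 0.648, 1.33 and 1.12 CPM at E16, 118 and 1.74 at P12, 0.443, 0.124 and 0 at P80, and 0.396, 61.9, 0.713 and 0 at P310. The 2 high samples stood apart, P12 replicate 2-3 lay just above E16, and P80 lay below it. The log2 changes were 5.83 (SE 2.56, edgeR adjusted p = 0.129) at P12 against E16 and -8.14 (SE 2.99, adjusted p = 0.377) at P80 against P12. Without P12 replicate 1 they were 0.74 and -3.07.

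Fa2h, which hydroxylates the fatty acids of these lipids, was at 0, 0.0603 and 0 CPM at E16, 49.3 and 1.25 at P12, 0.76, 0 and 0 at P80, and 0.264, 22, 0.357 and 0 at P310. The E16 value is a single count, so the size of any change from E16 is poorly set. Fa2h rose at P12 (log2 change 9.77, SE 3.16, edgeR adjusted p = 0.0441), and the call was lost without P12 replicate 1, P80 replicate 1, P80 replicate 2 or any single E16 library, over a range of 5.45 to 11.62. Gal3st1, which adds sulfate to make sulfatide, was at 10.1 and 8.47 CPM in the 2 high samples and at 0 to 2.51 elsewhere.

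Aspa cleaves N-acetylaspartate and so supplies acetate in oligodendrocytes. It was at 0.576, 0.0603 and 0.118 CPM at E16, 3.17 and 1.93 at P12, 2.66, 2.72 and 7.3 at P80, and 3.3, 8.91, 6.51 and 5.61 at P310. No postnatal sample overlapped E16, and the 2 samples high in Mbp did not stand apart. Aspa rose by 3.34 (SE 0.88, edgeR adjusted p = 0.0106) at P12 and by 4.08 (SE 0.86, adjusted p = 0.00152) at P80. The call at P12 was lost without P12 replicate 1, where the change was 2.95 (adjusted p = 0.0585).

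Of the transcription factors, Myrf, which switches on the late myelin programme, was at 1.94, 3.14 and 2.65 CPM at E16, 76.4 and 11.3 at P12, 4.69, 6.79 and 3.48 at P80, and 0.924, 136, 2.59 and 4.33 at P310. Both P12 samples lay above E16 and P80, and P310 spanned the whole range. The log2 changes were 4.08 (SE 1.82, edgeR adjusted p = 0.133) at P12 against E16 and -3.14 (SE 1.76, adjusted p = 0.662) at P80 against P12, and without P12 replicate 1 they were 2.12 and -1.19. Nkx6-2, a homeodomain factor of the lineage, was at 1.08, 0.965 and 1.89 CPM at E16, 16.1 and 2.54 at P12, 3.55, 9.02 and 4.52 at P80, and 4.49, 26.3, 3.57 and 2.8 at P310. All postnatal samples lay above E16, and the gene shares 12.9% of its exon bases with Inpp5a. Nkx6-2 rose at P12 (log2 change 2.81, SE 0.97, adjusted p = 0.0451), and the call was lost without P12 replicate 1, P310 replicate 1 or any single E16 or P80 library, over a range of 0.95 to 3.61. It was also lost with limma-voom (1.87, adjusted p = 0.0582) and with P12 replicates 2 and 3 kept apart (2.39, adjusted p = 0.0627).

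Of the 9 secreted, metabolic and other genes, 5 rose both at P12 and at P80 against E16: Apod, Gsn, Trf, Car2 and Cryab. All 5 are also known from other brain cells, so they mark the lineage less strictly than Mbp or Mag. Apod, a secreted lipid carrier, was at 11.3, 14.2 and 9.55 CPM at E16, 128 and 129 at P12, 159, 89.5 and 109 at P80, and 323, 148, 80.5 and 59.5 at P310. The 2 P12 samples were nearly equal although Mbp differed 29.6-fold between them. Apod rose by 3.46 (SE 0.59, edgeR adjusted p = 8.99e-04) at P12 and by 3.35 (SE 0.56, adjusted p = 5.07e-04) at P80.

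Gsn, or gelsolin, which severs actin filaments, was at 8.28, 17.9 and 12.5 CPM at E16, 325 and 95.3 at P12, 309, 67.9 and 157 at P80, and 122, 142, 105 and 124 at P310. It rose by 4.02 (SE 0.62, edgeR adjusted p = 4.83e-04) at P12 and by 3.78 (SE 0.59, adjusted p = 3.36e-04) at P80. Between P12 and P80, groups that overlapped, its log2 change was -0.24 (SE 0.58, adjusted p = 0.967). Car2, a carbonic anhydrase, was at 2.66, 9.17 and 5.96 CPM at E16, 57.8 and 27.3 at P12, 24.6, 50.9 and 53 at P80, and 54.4, 106, 32.3 and 31.6 at P310. It rose by 2.84 (SE 0.61, adjusted p = 0.00388) and 2.85 (SE 0.58, adjusted p = 0.00173).

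Trf, the iron carrier transferrin, was at 10, 7.84 and 11.5 CPM at E16, 179 and 49.7 at P12, 35.2, 78.2 and 97.4 at P80, and 146, 262, 51.7 and 38.8 at P310. It rose by 3.54 (SE 0.83, edgeR adjusted p = 0.00912) at P12 and by 2.84 (SE 0.77, adjusted p = 0.0135) at P80. The first call was lost without P12 replicate 1, where the change was 2.34, and the second without E16 replicate 2, over a range of 2.60 to 3.17. Trf shares 63.5% of its exon bases with the annotated gene Gm20425 and is uncertain for that reason. It is also made by the choroid plexus, and the summed CPM of 10 ependymal and choroid plexus markers was 117 to 197 at E16 and 630 to 6388 later. Most of this was Ttr, at 78.2 to 144 and 458 to 5906 CPM. The part of these cells in Trf was not tested.

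Cryab, a small heat shock protein, was at 1.15, 2.35 and 2.06 CPM at E16, 23.9 and 10.9 at P12, 21.9, 27.3 and 24.6 at P80, and 21.9, 111, 11.2 and 14.7 at P310. It rose by 3.21 (SE 0.87, edgeR adjusted p = 0.0165) at P12 and by 3.72 (SE 0.84, adjusted p = 0.00405) at P80. The call at P12 was lost without P12 replicate 1, E16 replicate 1 or E16 replicate 3, over a range of 2.54 to 3.67. Cryab shares 17% of its exon bases with Hspb2.

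The remaining 4 genes of this role were not called in any of the 4 comparisons. Qdpr, which regenerates the cofactor tetrahydrobiopterin, was at 781 CPM in P310 replicate 2 and at 12.2 to 48.7 in the 11 other samples, E16 included. Qdpr shares 18.6% of its exon bases with Gm42413. Ppp1r14a, an inhibitor of myosin phosphatase, was at 102 CPM in P310 replicate 2 and at 5.06 to 24.1 elsewhere. Gamt, which makes creatine, ranged from 1.37 to 14.5 CPM, and the highest value was P80 replicate 2. Klk6, a secreted protease of mature oligodendrocytes, had no count at E16 or P80, 33 counts in P12 replicate 1, 15 in P310 replicate 2, 7 in P310 replicate 1 and 0 in the other postnatal samples. Against 3 counts over the 3 E16 libraries, the P12 mean was at least 16.2-fold higher, and the whole of it came from 1 sample.

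The 2 samples with high sums did not hold the members in equal proportions. Mbp and Mobp gave 46.8% and 13.7% of the member counts in P12 replicate 1, together 60.5% (exact 95% interval 60.2 to 60.7). In P310 replicate 2 they gave 58.4% and 36.3%, together 94.7% (94.7 to 94.8). At E16 the pair gave 3.13% to 5.04%, while Nfasc gave 62% to 74.9%. In the other 7 postnatal samples Mbp and Mobp gave 7.1% to 28.6%. The sum over the other 28 members was 2873 CPM in P12 replicate 1, where P310 replicate 2 had 3527, against 365 to 1180 in the other 10 samples. The sums of the 2 high samples were thus 9.24-fold apart with Mbp and Mobp and 1.23-fold apart without.

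**Figure D4:**
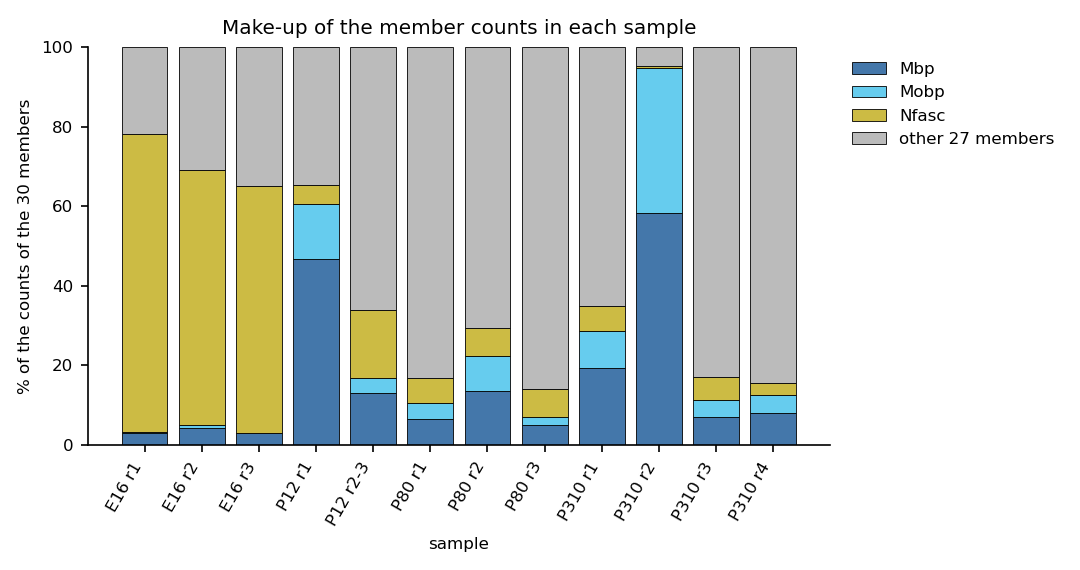
Share of the counts of the 30 members (vertical axis, percent) that came from Mbp, Mobp, Nfasc and the other 27 members in each of the 12 samples. Nfasc fills most of the E16 bars, and Mbp with Mobp fill 94.7% of the bar of P310 replicate 2.

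Gene by gene in TMM-scaled CPM, 17 members were higher in P310 replicate 2 than in P12 replicate 1 and 13 were lower. The median ratio was 1.31. This split depends on the scaling, which raised P310 replicate 2 relative to P12 replicate 1, although their libraries held 14420096 and 14613236 counts. Opalin, for example, had 136 and 149 counts but a ratio of 1.61. By raw library totals, fewer members were higher than lower in P310 replicate 2. Qdpr was 25.1-fold higher in P310 replicate 2, Mobp 24.5-fold, Mbp 11.5-fold, Hapln2 7.03-fold, Gjc3 6.75-fold and Ermn 5.05-fold. Mog was 3.6-fold higher in P12 replicate 1, Cldn11 2.72-fold, Gsn 2.29-fold, Mag 2.27-fold and Fa2h 2.24-fold. The count of Mbp per count of Mog was 43.4 in P12 replicate 1 and 1801 in P310 replicate 2, and per count of Mag 13.4 and 350. By contrast Ugt8a per Fa2h, both enzymes of myelin lipid synthesis, was 2.39 and 2.81. The count of Mbp per count of Mobp was 3.42 and 3.47 in the P12 samples and 1.56 to 2.35 in all 7 adult samples, among which P310 replicate 2, at 1.61, did not stand out. These are ratios between single samples and have no test.

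**Figure D5:**
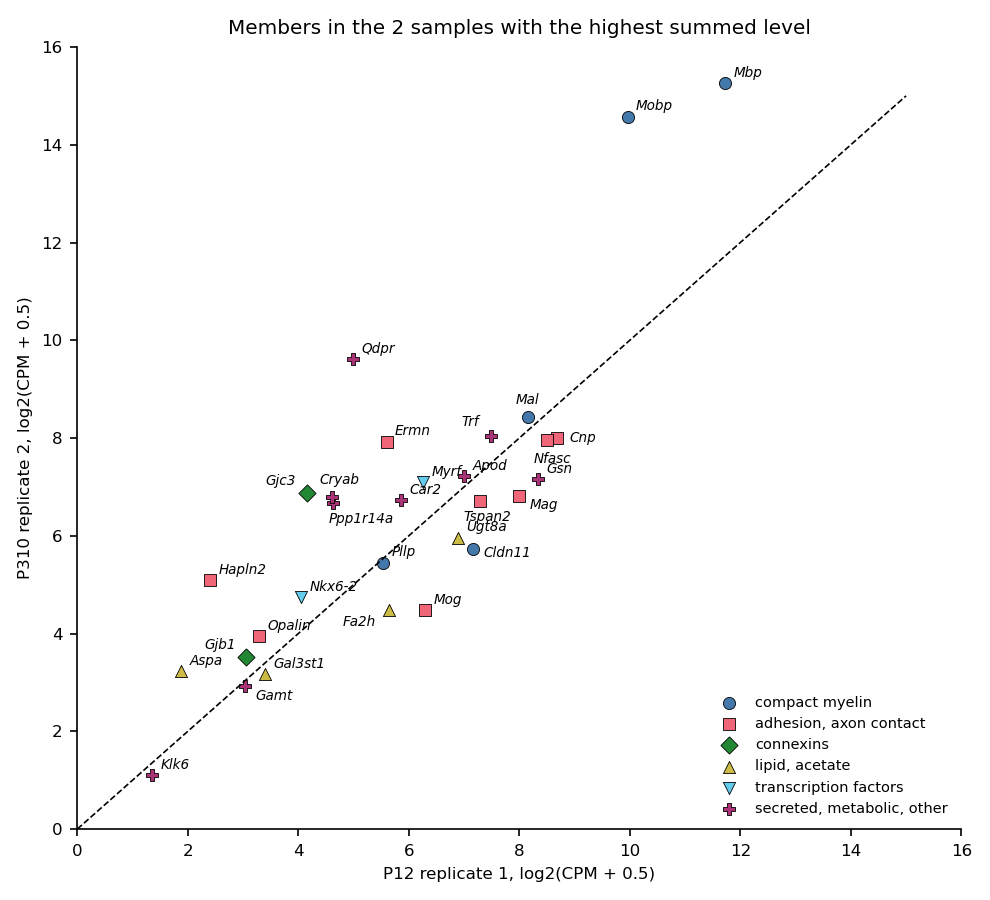
Level of each member in P310 replicate 2 (vertical axis) against P12 replicate 1 (horizontal axis), both as log2(CPM + 0.5), with symbols by role and a dashed line of equal level. Mbp, Mobp and Qdpr lie farthest above the line, and Mog and Cldn11 farthest below it.

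Each high sample was also compared with the other samples of its age. Both samples were picked because they were high in these genes, so the counts that follow describe them and are no test. P12 replicate 1 was at least 5-fold above P12 replicate 2-3 in 14 of the 29 members with over 3 counts in the latter, where 1.21% of all genes were. These were led by Mog (116-fold), Gjb1 (73.3-fold), Ugt8a (67.8-fold), Ermn (53.9-fold) and Opalin (48.6-fold). P310 replicate 2 was at least 5-fold above the median of the other P310 samples in 17 of 27 members, where 4.9% of all genes were. Those with the highest ratios over a median of more than 3 counts were Mobp (618-fold), Mbp (599-fold), Ermn (160-fold), Hapln2 (75.5-fold) and Myrf (52.4-fold). In 12 members both ratios reached 5-fold. In Aspa and Apod both stayed under 2-fold, and in Mal, Pllp, Gsn and Gamt the ratio at P310 did. By TMM-scaled CPM, P12 replicate 1 was the highest of the 12 samples for 11 members, P310 replicate 2 for 16, and another sample for Apod, Gamt and Pllp.

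Per kilobase of exon, the level that allows genes to be compared, Mbp, Mobp and Cnp led in P12 replicate 1 at 404, 145 and 113 CPM per kb. Mbp, Mobp and Qdpr led in P310 replicate 2 at 4668, 3564 and 437. The medians of the other adult samples were led by Mal at 65.2, Gsn at 38.9 and Apod at 38.5, with Mbp at 8.31. At E16 the medians were led by Nfasc at 19.9, Qdpr at 11.3 and Cldn11 at 9.2, with Mbp at 1.59. The gene at the top of the group thus differed between E16, the high samples and the other adult samples.

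With the 2 high samples set aside, all 7 remaining postnatal samples lay above all 3 E16 samples for 14 members: Mbp, Mobp, Cnp, Aspa, Mal, Trf, Gjc3, Nkx6-2, Apod, Tspan2, Car2, Cryab, Gsn and Pllp. For 2 members, Mog and Nfasc, all 7 lay below E16, and 14 members overlapped. Over all genes 21.8% lay above and 24.4% below in the same way. The remaining samples thus differed from E16 in Mbp (41.9 to 319 CPM against 11.6 to 18.7) while Mag, Opalin, Ugt8a, Fa2h, Gjb1 and Myrf overlapped with it. For Mag only P80 replicate 2 overlapped, at 3 counts or 0.371 CPM, where the highest E16 sample was at 0.845. Opalin, Fa2h and Gjb1 had few counts in most of these samples, so depth limits their comparison.

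Other genes of the lineage were read from lists of known markers. Of 27 other oligodendrocyte genes tested, 10 rose and none fell at P12 against E16 (median log2 change 2.75). Over all genes 16.7% were called higher and 10.5% lower in this comparison, and the counts of the lists below stand beside the same shares. Those with the smallest adjusted p were Elovl7, a fatty acid elongase (6.11, SE 0.51, edgeR adjusted p = 4.59e-07), Tmem63a, a channel protein (3.93, SE 0.34, adjusted p = 6.82e-07), and Padi2, which converts arginine to citrulline in proteins such as Mbp (4.02, SE 0.51, adjusted p = 2.89e-05). Of 15 genes that build or degrade myelin sphingolipids, 9 rose and Ugcg fell (median 1.14), with Sgms1, a sphingomyelin synthase (3.47, SE 0.28, adjusted p = 3.69e-07), Elovl1 (2.86, SE 0.40) and Gltp (2.33, SE 0.36) first. Of 14 genes of committed precursors, the stage between OPC and oligodendrocyte, 6 rose and 3 fell (median 1.76), with Itpr2 (3.60, SE 0.24), Gpr17 (4.31, SE 0.46) and Cnksr3 (2.74, SE 0.35) first. Of 16 OPC genes 2 rose, Lims2 (5.76, SE 0.39) and Cspg4 (2.13, SE 0.34), and 2 fell, among them Vcan by 2.82 (SE 0.37); the median was 1.08, and both counts lay near the share over all genes. Between P12 and P80 the 4 lists held 2 calls, Ndrg1, which was higher at P80 (log2 change 1.64, SE 0.23), and the OPC gene Ptprz1, which was lower (-1.79, SE 0.32). Between P80 and P310 they held 0 calls in edgeR, as for all genes tested.

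Genes of these lists also set the 2 high samples apart from each other. The summed CPM of the committed precursor list was 8202 in P310 replicate 2 and 396 to 682 in the other 11 samples, P12 replicate 1 at 613 included. Nearly all of it was Bcas1, at 7727 CPM in P310 replicate 2, 86.2 in P12 replicate 1 and 3.67 to 58.9 in the rest. The summed OPC list was 504 CPM in P310 replicate 2 and 288 to 492 in the other P310 samples, but its genes differed in opposite directions. Sox10 was at 58.1 CPM in P310 replicate 2 against 1.02 to 9.9 in the others, and Olig1 at 63.5 against 0.924 to 3.57. Ptprz1 was at 30.5 against 31.7 to 72.9, and Vcan at 7.7 against 9.98 to 12.1. Ependymal and choroid plexus markers summed to 5620 CPM in P12 replicate 1, while P310 replicate 2 had 630, against 896 in P12 replicate 2-3 and 2378 to 6388 in the other P310 samples. Most of each sum was Ttr, at 5266, 458, 813 and 2120 to 5906 CPM in the same order.

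The 8 coding genes outside the group whose log2 level was most alike to the summed level of the members over the 12 samples were Tmem88b (Pearson r = 0.98), Tppp (0.97), Bcas1 (0.97), Qk (0.96), Fth1 (0.96), 1700088E04Rik (0.96), Trak2 (0.95) and Eps15 (0.93). Without the 2 high samples, over 10 samples, r ranged from 0.61 (1700088E04Rik) to 0.93 (Tppp). These are descriptions with no test, since the samples share ages and the high samples weigh most. Tppp, which bundles microtubules, was at 97.9 CPM in P12 replicate 1 and 593 in P310 replicate 2, against 4.52 to 46.1 in the other samples. Fth1, the heavy chain of the iron store ferritin, was at 1014 and 14114 CPM, against 121 to 515.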

How the data were processed

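Total RNA of PDGFRα-sorted brain cells was sequenced in 13 libraries. Each deposited file gives raw counts for every gene, produced per the file headers by featureCounts 1.5.0-p1 over exons from Ensembl release 92, with a minimum overlap of 10 bases, counting reads that overlap several genes or map to several places for each, and with no strand option. Trim Galore and TopHat2 2.1.1 are named in the submitters' processing notes, with the GRCm38 build. Names from GENCODE M21 were found for 37715 of 37785 genes, and some genes are left out of the report.

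P12 replicates 2 and 3 were summed. After filterByExpr by age (minimum count 10) and TMM scaling, 21170 genes were fitted with a mean per age in edgeR 4.0.16 under R 4.3.3, using its robust quasi-likelihood test, with Benjamini-Hochberg adjustment over all genes and a threshold of 0.05. Standard errors were derived from the fitted change and its F value and are approximate. The procedure was tested on simulated data. Python 3.11.15 with pandas 2.3.3, scipy 1.17.1 and matplotlib 3.10.9 was used for summaries. The alternatives were RLE size factors, a looser filter (1 count) or a tighter one (1 CPM in 3 samples), DESeq2 1.42.0, limma-voom (limma 3.58.1) with quality weights, a replicate term, P12 replicates kept apart, counts without mitochondrial, ribosomal RNA and haemoglobin genes, leaving out each sample, and leaving out the 2 high samples.

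The members, the gene lists and the tests were chosen with earlier results of these data known. All 30 members are named, and of each other list up to 3 genes with the smallest adjusted p; further genes are those most alike in profile, and in the text on the 2 high samples some genes were chosen after their values were seen.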

Additional observations from a re-analysis of the deposited data

Results flagged for a closer look

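In the 4 P310 samples, 31 values were examined for a sample far from the others (a gap to the nearest sample over 0.829 of the whole range), namely the summed level and each member. In 19 of them a sample stood apart, and it was P310 replicate 2, the highest, each time. That this sample is high in these genes was known from earlier results of these data, so the count is a description. It cannot be read against the about 1 in 20 groups that chance alone would flag, and the members of 1 sample are not independent of each other. The summed level was 67158 CPM. Among genes of compact myelin, Mbp was at 39223 CPM and Mobp at 24409 CPM. Among genes of adhesion and axon contact, the levels were 21.8 CPM for Mog, 112 CPM for Mag, 256 CPM for Cnp, 15 CPM for Opalin, 243 CPM for Ermn, 33.7 CPM for Hapln2 and 105 CPM for Tspan2. Gjb1 was at 10.9 CPM and Gjc3 at 117 CPM. The lipid enzymes Ugt8a and Fa2h were at 61.9 and 22 CPM, and the transcription factors Myrf and Nkx6-2 at 136 and 26.3 CPM. Ppp1r14a was at 102 CPM, Qdpr at 781 CPM and Cryab at 111 CPM. The next highest P310 sample was at 1653 CPM for the sum, 319 for Mbp, 155 for Mobp and 48.7 for Qdpr. Groups of 2 or 3 samples were not examined in this way, which leaves out P12 replicate 1.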

How the results depend on the processing

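Counts of called members depended most on the low-count filter and on single libraries. With no filter beyond 1 count, 26 members were called at P12 against E16, 20 at P80 against E16, 14 at P80 against P12, 16 at P310 against P80 and 29 over all ages, where 21.8%, 30.3%, 2.93% and 1.41% of all genes were called in the first 4; the cause was not tested. DESeq2 called 1 at P80 against P12, where 3.01% of all genes were called. Leaving out each sample in turn gave 6 to 22, 8 to 13, 0 to 3, 0 to 0 and 7 to 22 members in the same order of comparisons, with 22 over all ages without P310 replicate 2, 19 without P310 replicate 4 and 7 without E16 replicate 1. The lowest count at P12 against E16 came without P12 replicate 1, which leaves 1 sample at P12. In the fits that kept at least 2 samples at each age, the shares of all genes called ranged as follows. They were 20.9% to 31.2%, 32.3% to 44%, 0.722% to 2.12% and 0% to 0.00476% in the first 4 comparisons. For the test over all ages the share is given for the main fit only, at 37.1% of all genes. The median change of members at P80 against P12 turned to 0.15 without both high samples, and ranged from -2.72 to 0.01 with 1 sample left out. At P12 against E16 the change of Mog turned to -1.30 and that of Ermn to -0.78 without both high samples. With 1 sample left out they ranged from -1.33 to 5.49 and from -0.81 to 4.93, the lowest without P12 replicate 1, and that of Nfasc from -0.94 to 0.33, the highest without P12 replicate 2-3. That of Gsn at P80 against P12 turned to 0.30 with limma-voom, 0.06 with P12 replicates kept apart and 0.92 without both high samples, and with 1 sample left out it ranged from -0.90 to 0.90, the highest without P12 replicate 1. The summed level at E16 was 477 CPM by raw library totals, against 424. Leaving out 1 sample gave sums of 408 to 448 CPM at E16, 874 to 7266 at P12, 900 to 1044 at P80 and 1115 to 23245 at P310. Per kilobase, Mbp and Mobp made up 28.6% and 10.3% of the member level in P12 replicate 1, and 48.9% and 37.3% in P310 replicate 2. The labels give replicate numbers with no stated pairing, and of 15 pairs of samples with equal numbers 3 deviated together with a correlation over 0.1 (range -0.0936 to 0.208). With a replicate block 10, 10, 0, 0 and 11 members were called, where 25.4%, 39.1%, 1.15% and 0% of all genes were called in the first 4. The calls it lost at P12 against E16 were Cldn11 (adjusted p = 0.0857), Cnp (0.109), Opalin (0.0841), Fa2h (0.0633) and Nkx6-2 (0.0903). Depth limits Klk6, Gjb1, Opalin, Fa2h and Hapln2, which had few counts outside the 2 high samples.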
